A study of Saccharomyces cerevisiae with 15 samples.

Results

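A pair of mutant alleles of RPO21, the gene for the largest subunit of RNA polymerase II in the budding yeast Saccharomyces cerevisiae, were compared directly with each other: rpb1-1 and rpb1S751F. The comparison takes 6 of the 15 Affymetrix Yeast Genome 2.0 arrays of a study of polymerase II mutants, chosen by sample title, with 3 biological replicates per allele, and covers 5449 genes, all those measured by at least 1 of the 5498 probe sets that name a single S. cerevisiae gene. Strain WRP1- 12A carries rpb1-1 and strain WSR8-5A carries rpb1S751F. Both are of mating type alpha in the W303 background, as is the wild-type strain WT1B (W303-1BR5), and the labels give all 3 strains the markers ade2-1 and can1-100, the allele his3-11,15 of HIS3, a leu2 allele, trp1-1, ura3-1 and RAD5. The cells were grown to mid-log phase in YPAD, a rich glucose medium with added adenine, and the growth temperature is not given in the sources used here. Each allele is represented by 1 strain, so the allele and any other difference between the strains cannot be told apart.

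RNA polymerase II makes all messenger RNA of the cell. Its largest subunit forms, with the second largest, the cleft that holds the DNA and the active site, and carries the repeated tail that binds processing and elongation factors. The allele rpb1-1 is known as a temperature-sensitive mutation that has long been used to stop messenger RNA synthesis by a shift to high temperature. Among the yeast genes known to respond to the polymerase itself are those that supply its substrates: IMD2, which makes the first committed enzyme of guanine nucleotide synthesis, and the URA genes of pyrimidine synthesis are regulated through the choice of start site or through an activator that senses pathway intermediates.

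The values are the authors' log2 expression levels, so a difference of 1 is a 2-fold difference. Array medians over the tested genes lay between 10.04 and 10.09, and the median replicate standard deviation of a gene was 0.119 in rpb1-1, 0.125 in rpb1S751F and 0.113 in WT1B. Probe sets for another yeast species on the same array served as a measure of background, and 97.7% to 98.9% of the tested genes lay above their 95th percentile on each of these 9 arrays. Such arrays show levels relative to the other genes, so a shift shared by nearly all genes is not visible in them. Differences are rpb1-1 minus rpb1S751F, given as log2 values ± standard error with n = 3 arrays each. A gene was called where the adjusted p of the limma fit was below 0.05, and "higher" or "lower" is used of called genes in rpb1-1 relative to rpb1S751F.

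The alleles differed in a large share of the genome. Of the 5449 genes, 2616 were called (48.0%), of which 1240 were higher in rpb1-1 (22.8% of all genes) and 1376 were lower (25.3%). Differences of at least 1 (556 genes, 10.2%) were less balanced, with 129 genes higher (2.37%) and 427 lower (7.84%). At least 2 on the log2 scale separated 29 higher and 113 lower genes, and at least 3 separated 7 higher and 23 lower genes. The 6 arrays did not overlap between the alleles for 3091 genes (56.7%). The median difference over all genes was -0.0007, its absolute size had a median of 0.296, and the median standard error was 0.108. Small differences thus make up most calls, and the named genes below are read against these shares. WT1B arrays lay between those of the alleles for 414 called genes, above both for 392, below both for 440, and overlapped at least 1 of them for 1370.

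RPO21 itself did not separate the strains. It had 11.68, 11.77 and 11.63 in rpb1-1 and 11.63, 11.75 and 11.63 in rpb1S751F, a difference of 0.02 ± 0.08 (adjusted p = 0.825). The arrays of the alleles overlapped, and those of WT1B lay below both at 11.40, 11.29 and 11.20. The probe set measures the level of the message and not which mutation it carries, so it does not check the labels. Among the 12 polymerase II subunits, 3 were higher and 2 lower (41.7% called, against 48.0% of all genes), with a median difference of 0.11. RPB4, which forms a stalk with RPB7 at the base of the enzyme, had 12.15, 12.15 and 12.03 in rpb1-1, against 11.51, 11.58 and 11.57 in rpb1S751F, a difference of 0.56 ± 0.06 (adjusted p = 0.000146). RPB7, its partner in the stalk, differed by -0.05 ± 0.08 (adjusted p = 0.614). RPB3 was higher by 0.55 ± 0.10, while RPB11, with which it pairs in the assembly platform, was lower by 0.27 (-0.27 ± 0.06). RPB8, a subunit shared by the 3 nuclear polymerases, was also lower (-0.53 ± 0.07). RPB3 and RPB11 were thus called in opposite directions. RPB2, the second largest subunit, was higher by 0.27 ± 0.07, a call that was lost without rpb1-1 replicate 1. Array weights raised the count of higher polymerase II subunits to 7. None of the 7 polymerase I subunits was called, against 0 to 2 higher over the alternative settings. Of the 12 polymerase III subunits, 3 were higher (1 to 5 over the alternative settings). RPC17 was higher by 1.16 ± 0.15, while RPC53 (0.59 ± 0.16) and RPC82 (0.45 ± 0.17) lost their calls without rpb1-1 replicate 1, without rpb1-1 replicate 3 or without rpb1S751F replicate 2, each of which left 1 call in the list. RPC82, with arrays that overlapped between the alleles (adjusted p = 0.0489), lost its call under 9 alternatives in all, against 3 for RPC53.

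The genes that were lowest in rpb1-1 were IMD2 and URA3, both in nucleotide synthesis. IMD2 encodes an inosine monophosphate dehydrogenase. Its level was 6.58, 4.81 and 6.78 in rpb1-1, against 12.64, 12.41 and 12.54 in rpb1S751F, and the wild type lay between them at 9.85, 9.75 and 9.40. The difference of -6.47 ± 0.44 is 88.7-fold (adjusted p = 7.86e-06). Replicate 2 of rpb1-1 was lower than the other 2 arrays of that strain, and without it the difference was -5.85. The IMD2 probe set shares probes with other sequences, so the signal of a near copy cannot be told apart from it. Its paralogs stood in the same order. IMD3 had 11.46, 11.28 and 11.82 in rpb1-1, against 13.58, 13.13 and 13.32 in rpb1S751F (-1.82 ± 0.15, adjusted p = 2.65e-05). IMD4 had 12.34, 12.17 and 12.42 in rpb1-1, against 14.13, 13.98 and 13.97 in rpb1S751F (-1.72 ± 0.09, adjusted p = 1.67e-06). The arrays of the alleles did not overlap for any of the 3 genes, and WT1B lay between them for each, at means of 9.67 for IMD2, 12.62 for IMD3 and 13.40 for IMD4.

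In the adenine branch, ADE12, which commits inosine monophosphate to adenine nucleotides, had 11.24, 11.18 and 11.09 in rpb1-1, against 12.47, 12.54 and 12.55 in rpb1S751F (-1.35 ± 0.07, adjusted p = 1.24e-06). ADE17, which carries out the last steps to inosine monophosphate, was lower by a similar amount (-1.44 ± 0.29). Of the 28 measured purine and IMD genes, 11 were lower and 3 higher, and the median difference was -0.18. The higher ones were ADE13 at 0.66 ± 0.09, the purine permease FCY2 at 0.72 ± 0.13 and the nucleotidase SDT1 at 0.60 ± 0.10. The 3 IMD genes, ADE17 and ADE12 were the 5 lowest of the list, and 14 of its members were not called.

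URA3, which encodes the last enzyme of uridine monophosphate synthesis, had 5.35, 4.95 and 5.78 in rpb1-1, against 11.83, 11.51 and 11.53 in rpb1S751F, and 11.72, 11.56 and 11.43 in WT1B. The difference was -6.26 ± 0.19, or 76.8-fold (adjusted p = 1.31e-07). Every one of the 3 strains is labelled ura3-1, and no other change at the locus is named. In the gene order of assembly R64, the neighbours on either side, GEA2 and TIM9, were higher in rpb1-1, at 0.43 ± 0.06 and 0.62 ± 0.11, and MMS21, the next gene beyond TIM9, was lower (-1.21 ± 0.16). The step at URA3 therefore ended at the genes directly beside it. Whether the URA3 locus differs between the strains was not tested.

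No other gene of the pathway differed by 2 or more on the log2 scale. URA10, the minor of a pair of orotate phosphoribosyltransferases, had levels between 6.88 and 7.22 on the 3 arrays of rpb1-1, against 8.67, 8.91 and 8.80 in rpb1S751F (-1.76 ± 0.10, adjusted p = 2.6e-06). FUR1, which salvages uracil, had 12.40, 12.21 and 12.40 in rpb1-1, against 13.69, 13.38 and 13.54 in rpb1S751F (-1.20 ± 0.10). URA6, the uridylate kinase, was lower with arrays that did not overlap either (-0.96 ± 0.08). URA2, which catalyses the first steps, and URA8, a CTP synthase, were lower with -0.94 ± 0.08 and -0.99 ± 0.09. Of the 18 pyrimidine genes, 12 were lower and 2 higher (77.8% called, against 48.0% of all genes), with a median of -0.70. URA5, the major orotate phosphoribosyltransferase, differed by -0.03 ± 0.06 (adjusted p = 0.675), and PPR1, the activator of the pathway, was higher (0.46 ± 0.14). The count of 2 higher genes fell to 0 without rpb1-1 replicate 1 or 3 and without rpb1S751F replicate 2 or 3.

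Phosphate genes held the widest difference in the other direction. In budding yeast, scarce phosphate frees the activator PHO4 through the inhibitor PHO81, and PHO4 then turns on transporters, phosphatases and polyphosphate synthesis. SPL2, a small protein that shuts down low-affinity phosphate uptake, had 12.36, 11.93 and 12.13 in rpb1-1, against 6.86, 7.20 and 6.68 in rpb1S751F. The difference was 5.23 ± 0.19, or 37.4-fold (adjusted p = 3.07e-07), and WT1B had 12.46, 12.45 and 11.94, overlapping rpb1-1. PHO89, a sodium and phosphate cotransporter, had 12.14, 11.50 and 11.09 in rpb1-1, against 7.74, 8.12 and 7.93 in rpb1S751F (3.65 ± 0.32, adjusted p = 3.63e-05). GIT1, a permease for glycerophosphoinositol, had 11.21, 11.01 and 10.93 in rpb1-1, against 8.21, 8.23 and 8.08 in rpb1S751F (2.88 ± 0.15, adjusted p = 1.51e-06). For these 3 genes every rpb1S751F array lay below every WT1B array, while the rpb1-1 arrays overlapped WT1B for SPL2 and PHO89 and lay above it for GIT1.

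PHO81 had 11.45, 11.30 and 11.30 in rpb1-1, against 9.47, 9.27 and 9.26 in rpb1S751F (2.01 ± 0.09, adjusted p = 7.44e-07). The high-affinity transporter PHO84 was higher by 1.82 ± 0.17. The polyphosphate polymerase subunits VTC3 and VTC4 were higher by 1.91 ± 0.11 and 1.24 ± 0.09. PHO5, the secreted acid phosphatase, had 11.89, 11.43 and 11.22 in rpb1-1, against 10.65, 10.54 and 10.60 in rpb1S751F (0.92 ± 0.17, adjusted p = 0.00186), and WT1B stood above both with a mean of 13.48. PHO5 thus differed from SPL2 in where the wild type lay. PHO4 itself differed by -0.17 ± 0.12 (adjusted p = 0.296). Of the 30 measured phosphate genes, 18 were higher and 3 lower (70.0% called, against 48.0% of all genes), with a median of 0.42. The 3 lower genes were the low-affinity transporters PHO87 (-0.80 ± 0.08) and PHO91 (-0.29 ± 0.08) and the glycerol phosphatase GPP2 (-0.89 ± 0.15). Counts of higher genes ran from 15 to 19 and of lower genes from 2 to 5 over the alternative settings.

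**Figure D1:**
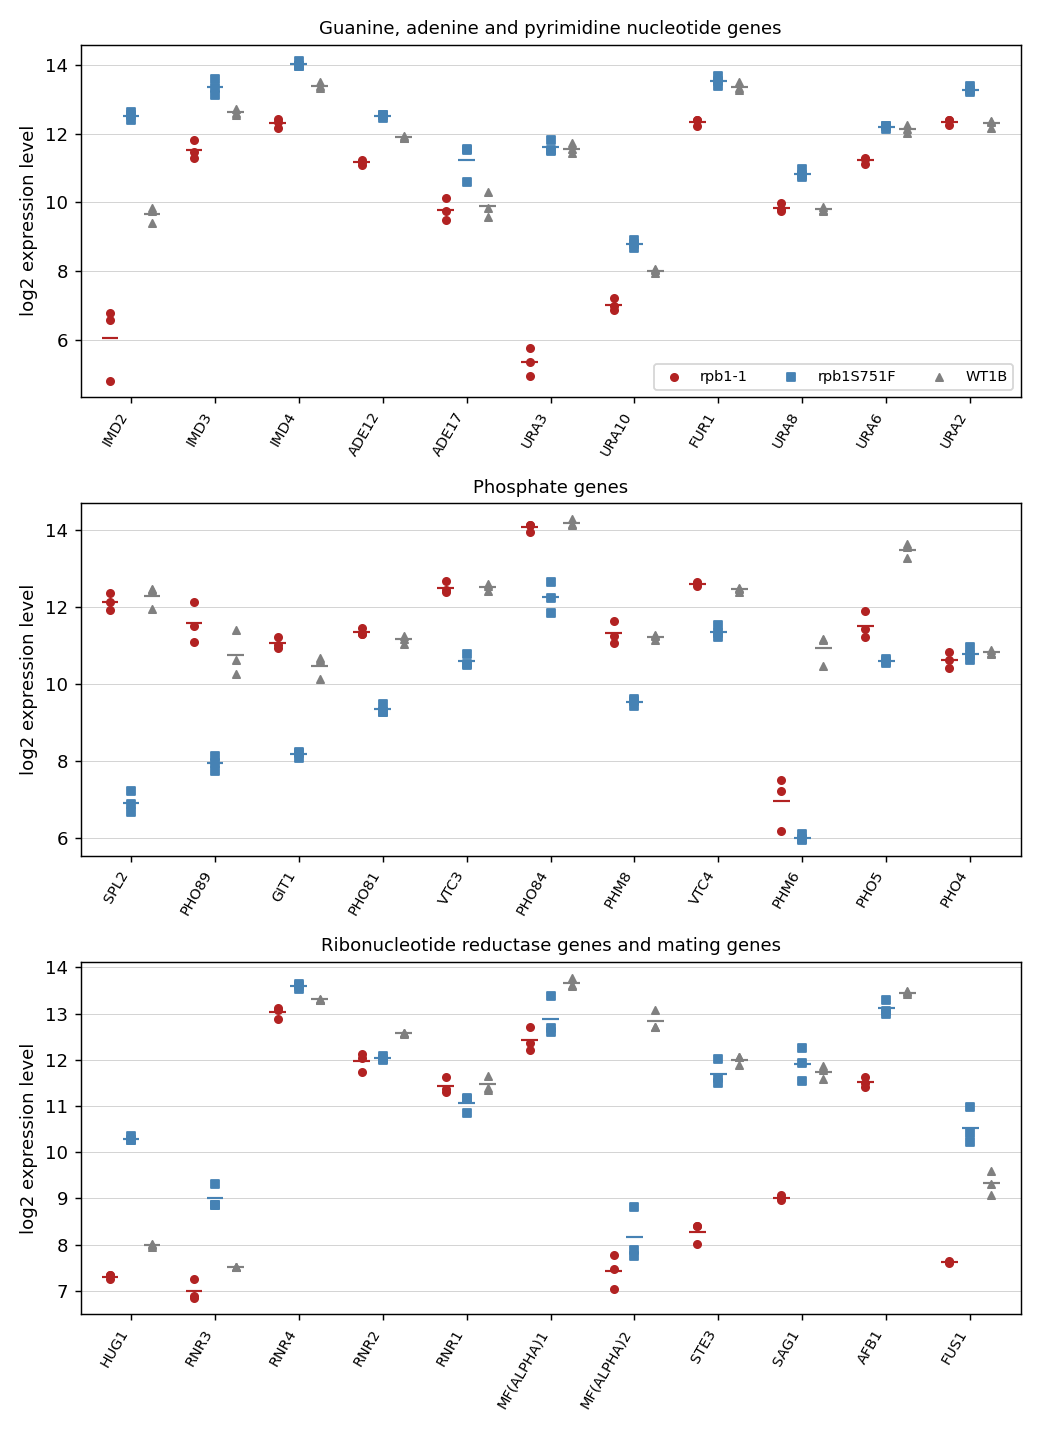
Log2 expression level (vertical axis) of nucleotide, phosphate, ribonucleotide reductase and mating genes, with a point for each array and a short line at the mean of each group of 3 arrays. IMD2 and URA3 are lower in rpb1-1 by 6.47 and 6.26 and SPL2 is higher by 5.23, and WT1B lies beside a different allele from gene to gene.

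Beyond these pathways, the genes furthest apart were of many kinds. The 15 highest and 15 lowest genes described here were taken from called genes whose arrays did not overlap between the alleles. GIS3 had 9.06, 8.83 and 9.12 in rpb1-1, against 4.93, 4.92 and 4.51 in rpb1S751F (4.22 ± 0.18, adjusted p = 5.69e-07), with WT1B at 5.11, 4.48 and 4.67. GIS3 thus stood apart in rpb1-1, with the wild type overlapping rpb1S751F. AQY2, a water channel, had 12.31, 11.98 and 12.28 in rpb1-1, against 8.43, 8.54 and 8.35 in rpb1S751F (3.75 ± 0.13). YLL053C, the adjacent reading frame that forms 1 channel gene with AQY2 in some yeast strains, was higher as well (2.87 ± 0.11).

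YHB1, the flavohemoglobin that removes nitric oxide, had 14.06, 14.07 and 14.08 in rpb1-1, against 11.25, 10.47 and 10.31 in rpb1S751F (3.39 ± 0.20, adjusted p = 3.61e-06). GPX2, a glutathione peroxidase, had 10.71, 10.31 and 10.45 in rpb1-1, against 7.54, 7.44 and 7.76 in rpb1S751F (2.91 ± 0.13). BDF2, a bromodomain protein that binds acetylated histones and is related to a TFIID partner, had 11.00, 10.88 and 10.87 in rpb1-1, against 8.14, 8.01 and 8.49 in rpb1S751F (2.70 ± 0.11). WT1B was close to rpb1-1 for YHB1 and GPX2, at means of 13.89 and 10.22, and above it for BDF2, at 11.62. The other highest genes were YRO2, YLR342W-A, YDR222W, YDR182W-A, AQR1, a membrane transporter, and ICS2, with differences from 3.35 (YRO2) to 2.70 (ICS2).

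Among the lowest genes after IMD2 and URA3, FRM2, which encodes a nitroreductase, had 6.21, 6.02 and 6.07 in rpb1-1, against 9.70, 9.76 and 9.31 in rpb1S751F (-3.49 ± 0.13). YPR015C had 5.09, 5.21 and 4.99 in rpb1-1, against 8.35, 8.69 and 8.51 in rpb1S751F (-3.42 ± 0.10). WT1B was nearer to rpb1-1 for both, at means of 6.82 for FRM2 and 5.80 for YPR015C. Several of the lowest genes reached background in rpb1-1. Of the 104 genes at or under the 95th percentile of the other-species probe sets on all 3 rpb1-1 arrays, 31 were called with a difference of at least 1, against 0 of 54 such genes in rpb1S751F. Both sets hold the same 50 genes that were at background on all 6 arrays, so they are not independent. For genes at background in rpb1-1 only a bound is given, taken against that percentile and for the deposited values alone. YFR012W-A was at least 10.4-fold lower in rpb1-1, with measured means of 3.42 in rpb1-1 and 7.49 in rpb1S751F (adjusted p = 4.94e-07). On the same basis, MIP6, an RNA-binding protein, was at least 8.09-fold lower, with means of 3.84 in rpb1-1 and 7.13 in rpb1S751F (adjusted p = 3.06e-08). YFL012W was at least 8.35-fold lower, with means of 3.81 in rpb1-1 and 7.18 in rpb1S751F (adjusted p = 1.2e-06). CDA1, a chitin deacetylase of the spore wall, was at least 6.50-fold lower, with means of 3.39 in rpb1-1 and 6.82 in rpb1S751F (adjusted p = 1.49e-06). The remaining genes of the lowest 15 were YAL064W, YDR541C, STE3, YGL081W, YDL241W, SPO1 and LOH1.

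**Figure D2:**
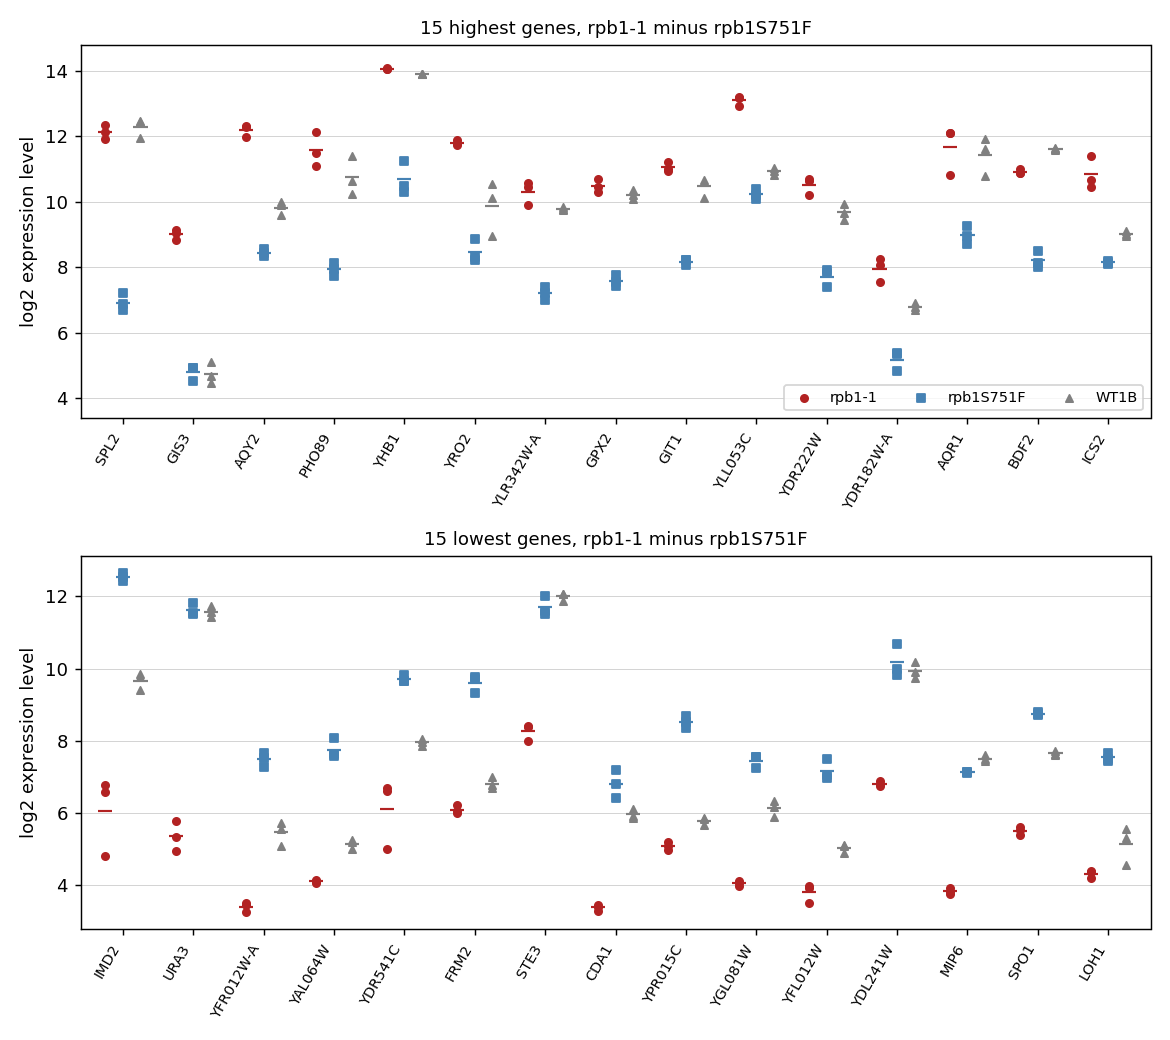
Log2 expression level (vertical axis) of the 15 genes highest and the 15 lowest in rpb1-1 relative to rpb1S751F, with a point for each of 3 arrays per strain and a line at each mean. The genes were chosen among those whose arrays did not overlap between the alleles. WT1B lies near rpb1-1 for SPL2 and YHB1, near rpb1S751F for GIS3 and URA3, and between them for IMD2.

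Genes for damage-inducible ribonucleotide reductase were split. HUG1, a small inhibitor of the enzyme that is among the genes most responsive to replication stress, had 7.34, 7.34 and 7.26 in rpb1-1, against 10.26, 10.27 and 10.35 in rpb1S751F. The difference was -2.98 ± 0.06 (adjusted p = 3.06e-08), and WT1B lay between them at 7.99, 8.02 and 7.96. RNR3, the inducible large subunit, had 6.84, 7.27 and 6.89 in rpb1-1, against 8.85, 9.31 and 8.86 in rpb1S751F (-2.01 ± 0.15, adjusted p = 1.22e-05). For both genes the wild type was nearer to rpb1-1. The other subunits differed less: RNR4 was lower by 0.56 (-0.56 ± 0.08), RNR2 differed by -0.07 ± 0.10 (adjusted p = 0.588), and RNR1, the main large subunit, was higher by 0.38 ± 0.13. The inhibitor SML1 was lower (-0.60 ± 0.07). Over the 22 measured genes of the list, 7 were lower and 4 higher (9 and 2 without rpb1S751F replicate 1), with a median of -0.02, so HUG1 and RNR3 stood far from the rest of it.

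Among 58 genes of DNA repair and recombination, 21 were higher and 7 lower, with a median of 0.17. Of this list 48.3% were called, close to the 48.0% of all genes. YKU80, a subunit of the complex that binds broken DNA ends and telomeres, had 6.32, 6.39 and 6.51 in rpb1-1, against 8.03, 8.23 and 8.18 in rpb1S751F (-1.74 ± 0.09, adjusted p = 1.57e-06), and WT1B, at a mean of 8.15, overlapped rpb1S751F. REV7, a subunit of the mutagenic polymerase zeta, was lower as well (-1.34 ± 0.14), while XRS2, of the complex that processes breaks, was higher (0.62 ± 0.06). In DNA replication, 18 of 59 genes were higher and 6 lower, so that 40.7% were called, under the share of all genes. Counts of lower genes there ran from 3 (without rpb1-1 replicate 2, or without rpb1S751F replicate 1 or 3) to 10, and array weights gave 28 higher. The list held ORC4 and ORC1 of the origin recognition complex at 1.00 ± 0.09 and 0.81 ± 0.10, and RNH203, a subunit of ribonuclease H2, at -1.28 ± 0.13. Checkpoint genes counted 5 higher and 2 lower of 18 (38.9% called), led by the clamp loader RAD24 at 0.80 ± 0.08.

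Of 31 elongation factors, 15 were higher and 1 lower, with a median of 0.31 (51.6% called, against 48.0% of all genes). Of 32 general transcription factors, 14 were higher and 3 lower, with a median of 0.20 (53.1% called), and 8 were higher without rpb1-1 replicate 3. CTK1, a kinase of the polymerase tail, had 9.49, 9.47 and 9.43 in rpb1-1, against 8.70, 8.78 and 8.73 in rpb1S751F (0.73 ± 0.07, adjusted p = 6.6e-05). TOA2, a subunit of TFIIA, was higher by 0.74 ± 0.08, and MOT1, which removes the TATA-binding protein from DNA, was lower (-0.56 ± 0.10). Mediator, which links activators to the polymerase, had 5 higher and 3 lower of 24 genes, so that 33.3% of them were called, under the 48.0% of all genes. It held the tail subunit PGD1 at 0.76 ± 0.09 and the kinase-module subunit SSN2 at -0.47 ± 0.08.

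After synthesis, the message is cleaved, bound and exported. RNA14, a cleavage factor subunit, had 10.50, 10.30 and 10.03 in rpb1-1, against 9.33, 8.54 and 9.09 in rpb1S751F (1.29 ± 0.20, adjusted p = 0.000711), and REF2, another 3' end factor, was higher by 0.87 ± 0.10. In that list of 28 genes, 10 were higher and 2 lower (42.9% called, against 48.0% of all genes). The count of higher genes was 5 or 6 without rpb1-1 replicate 1 or 3 and without rpb1S751F replicate 2 or 3. YRA1, an export adaptor, had 11.15, 11.27 and 11.48 in rpb1-1, against 12.71, 12.51 and 12.61 in rpb1S751F (-1.31 ± 0.10, adjusted p = 1.14e-05), with WT1B at a mean of 12.64. YRA1 is known to limit its own level through an intron that is spliced poorly. Among 21 genes whose introns are known to take part in regulation, 9 were lower and 2 higher (median -0.02, 52.4% called). RPS9A, a ribosomal protein gene, was lower (-1.31 ± 0.25), and RPS22B, another, was higher (1.90 ± 0.18). The arrays do not separate spliced from unspliced messages. Decay and exosome genes counted 13 higher (9 to 22 over the alternative settings) and 4 lower (2 without rpb1-1 replicate 1) of 46. Of this list 37.0% were called, under the share of all genes. EDC1, a decapping enhancer, was lower (-0.94 ± 0.11).

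Proteasome genes were almost uniformly higher, each by a small amount. Of the 33 measured genes, 32 were higher and none lower, with a median of 0.44, and 32 were higher under every alternative setting. That is 97.0% called, against 48.0% of all genes. RPT4, a subunit of the regulatory particle, had 13.24, 13.14 and 13.20 in rpb1-1, against 12.45, 12.49 and 12.49 in rpb1S751F (0.71 ± 0.07, adjusted p = 5.44e-05). RPN4, the activator of proteasome genes, was higher by 0.77 ± 0.18, and PRE3, a catalytic subunit and the 1 gene not called, differed by -0.08 ± 0.08 (adjusted p = 0.455). The median deviation of the list from each gene's 6-array mean ran from 0.21 to 0.25 over the rpb1-1 arrays and from -0.30 to -0.18 over the rpb1S751F arrays, so that no array stood on the other side. WT1B lay below both alleles for RPT4, at a mean of 12.12.

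Of 39 genes of the respiratory chain and ATP synthase, 26 were higher and 2 lower (median 0.40), and of 71 mitochondrial ribosomal proteins, 48 were higher and 2 lower (median 0.34). Of these lists 71.8% and 70.4% were called, against 48.0% of all genes. Higher genes numbered 22 to 31 and 39 to 54 over the alternative settings. COX7, a subunit of cytochrome c oxidase, had 13.23, 13.30 and 13.17 in rpb1-1, against 12.46, 12.44 and 12.50 in rpb1S751F (0.77 ± 0.07). RSM27 of the small mitochondrial ribosome was higher by 1.11 ± 0.07. Of 17 tricarboxylic acid cycle genes, none was higher and 3 were lower (2 to 8 over the alternative settings), among them CIT3 (-1.31 ± 0.15). That is 17.6% called. Of 128 cytosolic ribosomal proteins, 9 were higher and 8 lower (median 0.05), so that 13.3% of them were called, against 48.0% of all genes. Over the alternative settings 4 to 19 were higher and 3 to 14 lower. The lowest counts when 1 array was left out were 4 higher without rpb1-1 replicate 3, 5 higher without rpb1-1 replicate 1, and 5 lower without rpb1-1 replicate 2 or rpb1S751F replicate 1. Ribosome biogenesis genes were higher for 9 of 94 with a median of 0.23, but this count ran from 1 (without rpb1S751F replicate 3) to 66 (array weights) over the alternative settings, and array medians overlapped between the alleles.

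Among 39 genes of the general stress response, 10 were higher and 9 lower, so that 48.7% were called, close to the 48.0% of all genes. Array medians of this list overlapped between the alleles, and 6 were higher without rpb1S751F replicate 1. Its members included YGP1, a secreted glycoprotein, at 2.32 ± 0.21 and RCK1, a kinase of the oxidative stress response, at -1.78 ± 0.20. Of 30 heat shock proteins and chaperones, 12 were higher and 3 lower (3 to 8 over the alternative settings), with CPR6, an Hsp90 cochaperone, at 0.85 ± 0.12 and the cytosolic Hsp70 SSA3 at -0.95 ± 0.16. Redox defence counted 14 higher and 7 lower of 31 (67.7% called). After YHB1 and GPX2 its most certain difference was in GSH1, the first enzyme of glutathione synthesis. GSH1 had 10.83, 10.84 and 10.68 in rpb1-1, against 9.36, 8.98 and 9.11 in rpb1S751F (1.63 ± 0.10, adjusted p = 4.56e-06).

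Genes of carbon, nitrogen, amino acid and sterol metabolism held more lower than higher members in most lists. Glycolysis and fermentation had 12 lower and none higher of 20 genes (median -0.49). ENO1, an enolase, had 12.63, 12.78 and 12.60 in rpb1-1, against 13.52, 13.56 and 13.71 in rpb1S751F (-0.93 ± 0.09), and both phosphofructokinase subunits were lower, PFK1 (-0.82 ± 0.09) and PFK2 (-0.65 ± 0.07). Genes for alternative carbon sources counted 24 lower and 4 higher of 40 (70.0% called), with a median of -0.63 that became -0.34 after a further quantile normalization. SUC2, invertase, had 8.26, 8.47 and 8.29 in rpb1-1, against 10.41, 10.53 and 10.44 in rpb1S751F (-2.12 ± 0.12, adjusted p = 2.16e-06). ADH2, the alcohol dehydrogenase for growth on ethanol, was lower too (-1.57 ± 0.09), though WT1B stood below both alleles at a mean of 7.42. Peroxisomal and fatty acid genes counted 14 lower and 2 higher of 25 (64.0% called), led by PEX11, which acts in peroxisome division (-1.63 ± 0.10).

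Hexose transporters and sensors counted 10 lower and 4 higher of 21 (66.7% called, against 48.0% of all genes). The median of -0.36 for these turned to 0.10 after a further quantile normalization and 0.08 after cyclic loess, so no direction is given for the list. HXT9 and HXT11, transporters also tied to drug resistance, were lower (-2.76 ± 0.12 and -1.81 ± 0.13), as was the glucose sensor RGT2 (-1.51 ± 0.11). Nitrogen catabolite genes had 19 lower and 3 higher of 29 (median -0.66, 75.9% called). Their repressor DAL80 had 5.83, 5.14 and 5.79 in rpb1-1, against 8.09, 8.09 and 8.09 in rpb1S751F (-2.50 ± 0.16). Amino acid synthesis had 29 lower and 3 higher of 53 (median -0.36, 60.4% called). The lower ones included LYS9 and LYS1 of lysine synthesis (-1.22 ± 0.07 and -1.37 ± 0.08) and BAT1, the mitochondrial branched-chain aminotransferase (-1.12 ± 0.07). LEU2 had 9.14, 9.17 and 9.18 in rpb1-1, against 11.92, 11.46 and 11.54 in rpb1S751F (-2.47 ± 0.14, adjusted p = 2.42e-06), and the labels give both strains the same leu2 allele. The marker HIS3 was lower by a smaller amount (-0.47 ± 0.07), and ADE2, CAN1 and RAD5 were not called, at -0.14 ± 0.14, 0.13 ± 0.15 and 0.14 ± 0.08. Ergosterol genes had 19 lower and 3 higher of 30 (median -0.35, 73.3% called), led by ERG26 (-1.54 ± 0.09).

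The copper and iron lists differed in their balance of higher and lower genes. Copper homeostasis had 8 higher and none lower of 16 (median 0.22). ATX1, a copper chaperone, had 11.43, 11.43 and 11.52 in rpb1-1, against 9.47, 9.57 and 9.56 in rpb1S751F (1.92 ± 0.08, adjusted p = 6.81e-07), with WT1B above both at a mean of 13.10. FRE1, a reductase of iron and copper, was 2.83-fold higher (adjusted p = 9.49e-05), and it is also the highest gene of the iron list. The iron regulon had 15 lower and 5 higher of 33 (median -0.47, 60.6% called). The lower ones included the reductase FRE2 (-1.64 ± 0.13) and FIT3, a cell wall protein that retains iron carriers (-2.18 ± 0.23). The lowest difference of the list was that of FRE4, another reductase (-2.23 ± 0.35). The smallest p was that of LEU1 (-1.35 ± 0.10), which is in the list but acts in leucine synthesis and not in iron uptake. The list of hypoxic genes, which includes the repressor ROX1, had 18 lower and 2 higher of 26 (median -0.74, 76.9% called). Whether ROX1 acts on these genes here was not tested. TIR1, a cell wall mannoprotein, had 7.82, 7.67 and 7.57 in rpb1-1, against 10.66, 10.48 and 10.59 in rpb1S751F (-2.89 ± 0.14, adjusted p = 1.24e-06), and the sterol importer AUS1 was lower (-1.84 ± 0.11). The 2 higher genes were the repressor ROX1 (0.95 ± 0.15) and CYC7, a cytochrome c isoform (2.22 ± 0.27).

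**Figure D3:**
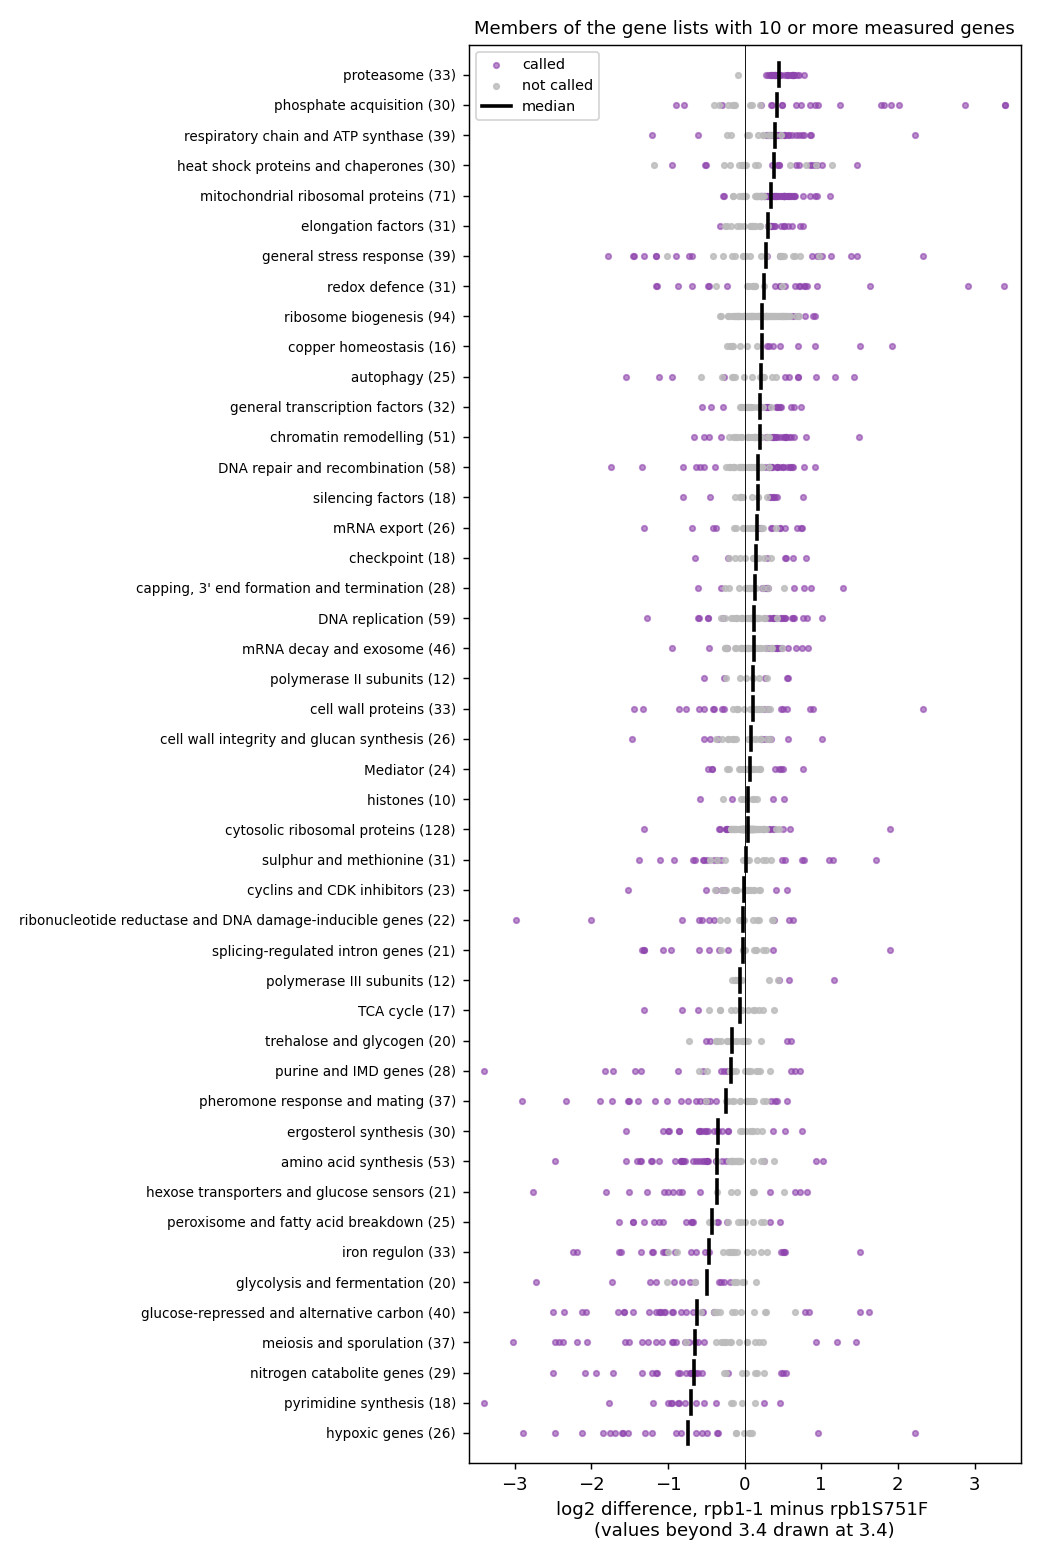
Log2 difference rpb1-1 minus rpb1S751F (horizontal axis) of each measured member of the 46 gene lists with 10 or more measured genes, ordered by the list median (black line). Proteasome genes sit in a narrow band around 0.44, phosphate genes spread widely to the right, and hypoxic genes have the lowest median at -0.74.

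The mating type of both strains was read from its defining genes. Alpha cells make alpha-factor and the a-factor receptor STE3 and keep a-specific genes off. For each array the median of all tested genes was subtracted from the mean level of a marker list, so that WT1A, the wild type of mating type a, could be set beside the alpha strains although its arrays were normalized in a separate set. The 7 a-specific genes lay between -4.03 and -3.83 in rpb1-1 and between -3.43 and -3.10 in rpb1S751F, against -3.79 to -3.72 in WT1B, while WT1A had 0.93 to 1.02. The 5 alpha-specific genes lay between -0.54 and -0.18 in rpb1-1 and between 1.24 and 1.91 in rpb1S751F, against 2.65 to 2.76 in WT1B, while WT1A had -3.53 to -3.34. Both alleles thus lay apart from WT1A on both lists in the direction of their labelled mating type, and in the deposited values rpb1-1 was below rpb1S751F on both. STE3 had 8.41, 8.01 and 8.40 in rpb1-1, against 12.01, 11.60 and 11.51 in rpb1S751F (-3.43 ± 0.15, adjusted p = 7.44e-07), with WT1B overlapping rpb1S751F. SAG1, the alpha agglutinin, had levels between 8.96 and 9.09 on the 3 arrays of rpb1-1, against 12.25, 11.93 and 11.55 in rpb1S751F (-2.89 ± 0.16), and AFB1, which binds a-factor, was lower as well (-1.60 ± 0.10). The 2 alpha-factor genes were not called. MF(ALPHA)1 had 12.36, 12.21 and 12.72 in rpb1-1 and 13.38, 12.69 and 12.60 in rpb1S751F (-0.46 ± 0.21, adjusted p = 0.097), and MF(ALPHA)2 averaged 7.43 in rpb1-1 and 8.16 in rpb1S751F, against 12.84 in WT1B.

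Of the 7 a-specific genes, 5 were lower in rpb1-1 and BAR1, the protease that degrades alpha-factor, was higher (1.36 ± 0.13). The median of this weakly expressed list, -0.92 in the deposited values, was -0.37 after a further quantile normalization and -0.55 after cyclic loess, with 4 genes lower in each. The lower members were AGA2, MFA1, STE2, STE6 and MFA2, and STE2 had 6.25, 6.63 and 6.45 in rpb1-1, against 7.32, 7.56 and 7.35 in rpb1S751F (-0.97 ± 0.12). In the pheromone response, 17 of 37 genes were lower and 4 higher (median -0.25, 56.8% called). There were 2 higher without rpb1-1 replicate 3 or without rpb1S751F replicate 1 or 3, and 7 higher after either further normalization. FUS1, a cell fusion protein strongly induced by pheromone, had 7.64, 7.61 and 7.65 in rpb1-1, against 10.97, 10.41 and 10.23 in rpb1S751F (-2.90 ± 0.19, adjusted p = 6.04e-06), and WT1B lay between at 9.59, 9.32 and 9.08. FAR1, which arrests the cycle for mating, was lower (-1.52 ± 0.18). Silencing factors, which keep the second copies of the mating-type genes off, had 7 higher and 2 lower of 18, with SIR2 at 0.76 ± 0.09 and the related deacetylase HST3 at -0.80 ± 0.08. HO, the mating-type switching endonuclease, had 11.28, 10.73 and 11.16 in rpb1-1, against 9.02, 9.55 and 9.49 in rpb1S751F (1.71 ± 0.20). HO was chosen beforehand as a marker of haploid cells, and the other such markers did not follow it. FUS3 was lower (-1.01 ± 0.14, adjusted p = 0.000479). RME1, STE5, STE18 and GPA1 were not called, at -0.31 ± 0.13, -0.14 ± 0.07, -0.17 ± 0.10 and 0.03 ± 0.11.

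Among the 10 genes whose WT1B arrays lay between the alleles with the widest gaps on both sides were SNZ3 and SNO3, which make vitamin B6, and THI13, which makes a thiamine precursor. SNO3 had 7.34, 7.22 and 7.25 in rpb1-1, against 10.46, 10.26 and 10.30 in rpb1S751F, with WT1B at 8.86, 8.76 and 9.18 (difference -3.07 ± 0.11). THI13 had 6.51, 6.44 and 6.50 in rpb1-1, against 9.56, 9.54 and 9.46 in rpb1S751F, with WT1B at 7.64, 7.49 and 7.63 (-3.04 ± 0.07, adjusted p = 3.06e-08). SNZ3 was placed likewise (-3.12 ± 0.15). The probe sets of these 3 genes share probes with other sequences of their families, so single family members cannot be told apart.

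In the deposited values, weakly expressed genes as a class were shifted down in rpb1-1. In the lowest decile of genes by mean level over the 6 arrays (levels 2.61 to 7.48), 55 were higher (10.1%) and 287 lower (52.7%), with a median of -0.55. The group medians there were 5.54 in rpb1-1, 6.28 in rpb1S751F and 5.95 in WT1B. From the third to the highest decile the medians ran from -0.003 to 0.066. The other-species probe sets, at the foot of the scale, differed the other way, with medians of 3.13 in rpb1-1 and 3.09 in rpb1S751F. This class depends on the scaling. After a further quantile normalization of the tested genes the median of the lowest decile was 0.06, with 180 higher and 167 lower, and after cyclic loess it was -0.08, with 152 higher and 198 lower. The direction of this class as a whole is therefore not established by these arrays. Named genes with low levels kept their call and direction under the further quantile normalization, but the fold moved by over 1.5 times for 20 of 228, all with a mean of at most 6.44 in rpb1-1.

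**Figure D4:**
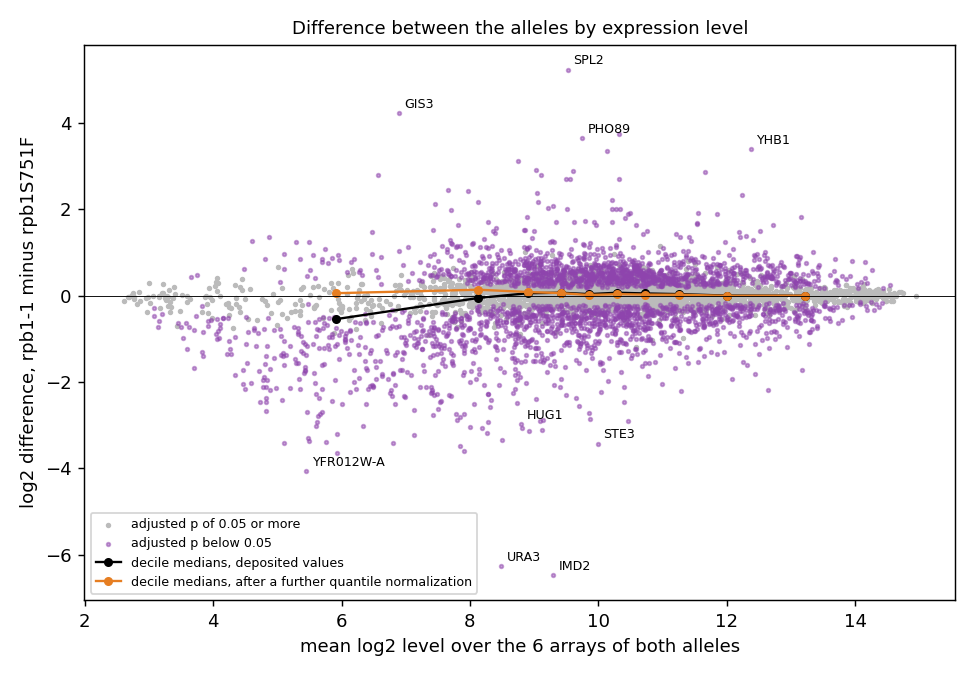
Log2 difference rpb1-1 minus rpb1S751F (vertical axis) of each gene against its mean log2 level over the 6 arrays (horizontal axis), with medians by deciles of the level for the deposited values and after a further quantile normalization. The deposited values fall to a median of -0.55 in the lowest decile, and this becomes 0.06 after the further normalization.

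Meiosis and sporulation genes, which haploid growing cells keep off, lie in this range. Of 37 genes, 20 were lower and 3 higher, with a median of -0.64, but after a further quantile normalization 14 were lower and 11 higher, with a median of -0.01. Members named here are given on the deposited scale and after that normalization. SPO1, a meiotic phospholipase homolog, had 5.62, 5.39 and 5.53 in rpb1-1, against 8.81, 8.75 and 8.71 in rpb1S751F (-3.24 ± 0.08, adjusted p = 3.1e-08), and WT1B lay between with a mean of 7.66. The difference of SPO1 was -2.82 after the further normalization. SGA1, a sporulation glucoamylase, had 7.07, 7.29 and 7.01 in rpb1-1, against 9.51, 9.63 and 9.49 in rpb1S751F (-2.42 ± 0.09, and -2.20 after the further normalization), with WT1B overlapping rpb1-1. SPO11, which cuts DNA to start meiotic recombination, was at background in rpb1-1, with means of 3.59 in rpb1-1 and 6.06 in rpb1S751F (adjusted p = 3.26e-07). In the deposited values it was at least 3.86-fold lower in rpb1-1, a bound of 1.95 on the log2 scale. Its measured difference was -2.47, and -1.75 after the further normalization, so the bound does not hold on that scale.

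Genes near chromosome ends were also lower in rpb1-1. Gene order was taken from assembly R64 and counted over measured genes from each end. Among the outermost 10 genes of the ends, 45 of 320 were higher (14.1%) and 185 lower (57.8%), with a median of -0.52 and group medians of 8.22 in rpb1-1, 8.92 in rpb1S751F and 8.71 in WT1B. Genes 41 or more from an end had a median of 0.02, with 979 higher and 960 lower of 4169. The first 5 genes had a median of -0.77 and the next 5 of -0.34, and those from the 11th to the 15th had 0.002. The median level over the 6 arrays was 8.52 for the outermost 10 genes and 10.12 for genes 41 or more from an end. Within the lowest 2 deciles of the level, the first 20 genes of an end had a median of -0.82 with 66.5% lower (215 genes), against -0.16 with 36.1% lower among genes further in (875 genes). In the deciles above them the medians were -0.002 and 0.04. After a further quantile normalization the median of the outermost 10 genes was -0.30, with 58 higher and 151 lower, and after cyclic loess it was -0.36, with 54 higher and 164 lower. The median of the end genes thus stayed below 0 under each scaling, nearer to 0 than in the deposited values, and the part of gene families with shared sequence in this was tested only by leaving out probe sets with shared probes, which gave -0.41.

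**Figure D5:**
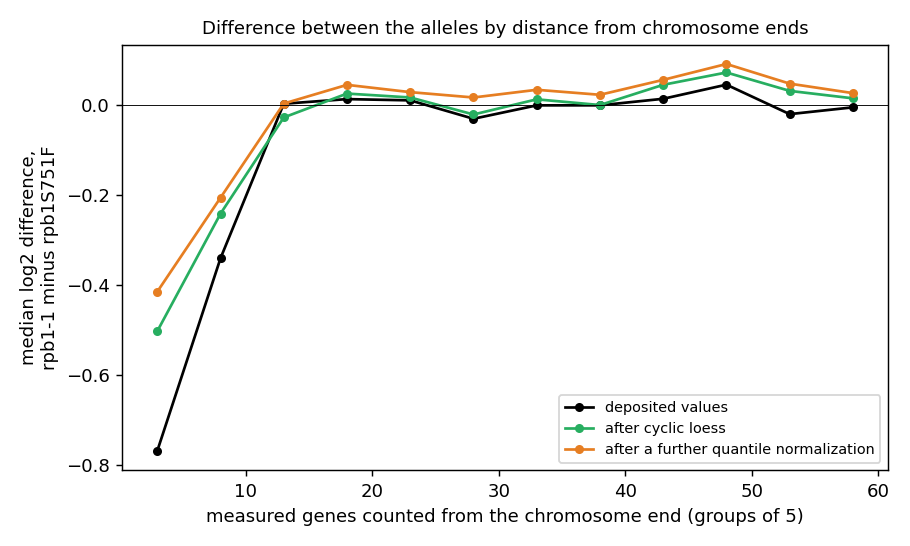
Median log2 difference rpb1-1 minus rpb1S751F (vertical axis) for groups of 5 measured genes counted from the chromosome ends (horizontal axis, both ends of all chromosomes together), for the deposited values and after each of 2 further normalizations. The first 5 genes have medians of -0.77 in the deposited values and -0.42 after a further quantile normalization, and from the 11th gene on the lines lie near 0.

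Coding length and chromosome were also examined. Across 5 groups of coding length the median difference ran from -0.03 to 0.07, and across the 16 chromosomes it ran from -0.13 on chromosome I to 0.06 on chromosome IV. Histone genes had 2 higher and 2 lower of 10, with 1 lower under most alternative settings. Cyclins and their inhibitors had 2 higher and 5 lower of 23 (3 lower and 1 higher without rpb1-1 replicate 1), with the inhibitor SIC1 at 0.56 ± 0.08. Of that list 30.4% were called. Cell wall proteins counted 9 higher and 10 lower of 33 (57.6% called). PIR1, a cross-linked wall protein, had 13.55, 13.63 and 13.60 in rpb1-1, against 12.66, 12.75 and 12.69 in rpb1S751F (0.90 ± 0.06). Chromatin remodelling genes had 21 higher and 4 lower of 51 (49.0% called, close to the 48.0% of all genes). Over the alternative settings 17 to 32 of them were higher. Their median was 0.20. Medians of their deviations from the 6-array mean ran from 0.03 to 0.17 over the rpb1-1 arrays and from -0.14 to -0.06 over the rpb1S751F arrays, which did not overlap. The lower members included SNF11 of the SWI/SNF complex at -0.66 ± 0.06. Autophagy genes had 7 higher (11 after a further quantile normalization) and 4 lower of 25, so that 44.0% were called. They included ATG8, the membrane-bound tag of autophagosomes, at 1.43 ± 0.19 and ATG34, a cargo receptor, at -1.55 ± 0.20. Sulphur and methionine genes had 7 higher and 11 lower of 31 (58.1% called), with SAM3, a permease for S-adenosylmethionine, at 1.72 ± 0.15.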

How the data were processed

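Labelled RNA of each strain was hybridised to 1-colour Affymetrix arrays. The deposited values are log2 levels per probe set and array, and the submitters' processing notes name RMA and limma without versions. RMA corrects background, quantile-normalizes and summarises probes. The 9 alpha arrays appear as a set normalized apart from the 6 others, which enter only 1 alternative. The sources used here do not give the probe annotation or build the authors used. Of 10928 probe sets, 5498 named 1 S. cerevisiae gene, 1746 named a gene of another species, 3683 had no name here and 1 named several. Names came from the platform annotation, with 12 symbols updated through a RefSeq table of assembly R64. For 47 genes with several probe sets the brightest was used. No sequences are printed and no coordinates are given.

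Differences were tested in R 4.3.3 by limma 3.58.1 (functions lmFit and eBayes, 1 mean per group over the 9 alpha arrays, 6 residual and 2.67 prior degrees of freedom, two-sided), with Benjamini-Hochberg adjustment over 5449 genes. The fit was tested on simulated data. Replicate arrays correlated at 0.987 to 0.996 across genes and shared at most 53 identical values, so no array was taken as a copy of another. Precision is limited by the number of arrays, and p-values measure the spread between these cultures as the labels give them.

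The 51 gene lists, the rule for named genes and the comparison were chosen with earlier results of these data known. The rule took the polymerase II subunits, the 15 highest and 15 lowest called genes whose arrays did not overlap, up to 4 called members of each list with the smallest p (or 1 where none was called), the marker genes of the strains, and the 10 called genes with the widest gaps whose WT1B arrays lie between. It names 228 genes, and the mating-type genes were named as markers. Other list members named or drawn were chosen after their values were seen. Lists are described by counts and medians with no test. WT1B values are a description. Alternatives covered normalization, filters, shared probes, the arrays fitted, variance models and left-out replicates.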

Additional observations from a re-analysis of the deposited data

How the results depend on the processing

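The count of 2616 called genes and that of 556 with a difference of at least 1 stayed within 1.5 times under all 23 alternatives. Leaving out 1 array gave 2196 to 2602 called genes and 531 to 570 with a difference of at least 1. The 6 allele arrays alone gave 2436 and 552, all 15 arrays 3083 and 558, and array weights 3576 and 543. Same-numbered replicates of the alleles deviated with correlations of 0.37, 0.50 and -0.29 across genes, and other pairs with -0.60 to 0.46. With 3 replicates each, these values do not settle whether the numbers pair the samples. With the replicate number as a block, 2590 and 560 genes were called on the 6 allele arrays, and 2660 and 557 on the 9 alpha arrays. The balance of wide differences moved with the scaling. Of those of at least 1, 129 were higher and 427 lower (23.2% higher), against 186 and 315 after a further quantile normalization (37.1%) and 161 and 343 after cyclic loess (31.9%). The larger side of all calls turned as well, with 1391 higher and 1263 lower after the further quantile normalization. RPO21 was not called under any setting, and its difference ran from -0.0152 to 0.0627 when 1 array was left out, turned to -0.0152 without rpb1-1 replicate 2 and to -0.0044 after median centring. Of 217 named genes called, 205 were called under every alternative that held them, as were all 117 of those that differed by at least 1. Most were named for a small p or a wide difference in these same arrays, which favours keeping the call. These counts therefore do not carry over to other genes. Signal limits the low genes: 50 lay at background on all 6 arrays, and leaving them out gave 2607 calls. Of 47 genes with several probe sets, 10 had probe sets that differed in their call and none had opposite calls.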
